A study of Mus musculus with 365 samples.

Results

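The 42 genes described here encode the machinery that copies DNA and the regulators that let a cell pass from G1 into S phase. They were taken as a listed set of symbols, matched by Entrez identifier, and all 42 were found among the 23427 genes of the count table. They were measured in single cells of EPLM, bone marrow progenitors that can give lymphoid and myeloid cells, sorted from the femur of C57BL/6 mice that carry the Flt3Ltg transgene for Flt3 ligand. The labels divide these cells into TN (triple negative) cells, 213 on chips 1, 2 and 3, and Ly6D+ cells, 152 on chips 4, 5 and 6. According to the labels 2 mice were pooled, and no age, treatment or time is named. All cells of both groups therefore come from Flt3Ltg mice, and no wild-type cell was measured. Neither the promoter of the transgene nor the mice behind each chip is named in the sources, so a p-value reflects variation among chips, possibly technical only. A chip carried cells of 1 population, so chip and population cannot be told apart.

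As background, a cell licenses its replication origins in G1, when ORC, Cdc6 and Cdt1 load the ring of Mcm2 to Mcm7 onto DNA. At the start of S phase, Cdc45 and the GINS complex join that ring and turn it into the active helicase, primase and polymerases copy the strands, and PCNA, loaded by the RFC complex, holds the polymerases on their template. Ribonucleotide reductase, thymidylate synthase and thymidine kinase supply the nucleotides, and cyclin E and the E2F factors drive the switch into S phase, many of whose genes are E2F targets. Lymphoid and myeloid progenitors divide often as they expand, and B-lineage precursors stop dividing for a time while they rearrange their antigen receptor genes.

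By role the members fall into 7 groups. Helicase subunits and loading factors are Mcm2, Mcm3, Mcm4, Mcm5, Mcm6, Mcm7, Mcm10, Cdc6 and Cdt1, and the cofactors of the active helicase are Gins1, Gins2, Gins3, Gins4 and Cdc45. Polymerase and primase genes are Pola1, Pola2, Prim1, Prim2, Pole and Pold1. The clamp, its loader, RPA and lagging-strand maturation are represented by Pcna, Fen1, Rfc2, Rfc3, Rfc4, Rfc5, Rpa2 and Lig1. Nucleotide supply and uracil repair hold Rrm1, Rrm2, Tyms, Tk1, Ung and Dut, chromatin and histone supply Slbp, Uhrf1, Cdca7, Chaf1a and Chaf1b, and the drivers of S-phase entry Ccne1, Ccne2 and E2f1. All 42 passed the filter on low counts between TN and Ly6D+.

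The promoters of the set held E2F words more often than promoters at large. In RefSeq promoters of GRCm38.p6 (250 bases before to 50 after a start), 34 of the 42 genes had an entry, with 39 promoters. Searched on both strands for TTTCCCGC, TTTGGCGC, TTTCGCGC and TTTGCCGC, 13 of these 39 promoters (33.3%) held at least 1 match, against 744 of 32851 promoters of all genes (2.26%). Matches can overlap one another, as in Mcm6. The 13 genes with a match were Cdc6, Cdca7, Cdt1, Gins3, Lig1, Mcm3, Mcm5, Mcm6, Mcm7, Pola1, Pold1, Rfc3 and Uhrf1. The share was 34.8% of 46 promoters for a list of 48 other DNA replication and S-phase genes, and 3.70% of 27 promoters for 30 G2/M genes. The words TTTGAA and TTTAAA, which are cell cycle homology region motifs of G2/M genes, were in 23.1% of the set's promoters, 85.2% of G2/M promoters and 27.6% of all promoters. CCAAT was in 51.3%, 85.2% and 37.4%. The set's promoters were also richer in G and C (60.1%) than all promoters (53.8%). Such a match is a description of letters and not a bound site.

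The promoters of Lig1 and Uhrf1 are shown because these genes were among the 8 that varied most closely with the rest of the set across cells and had an E2F word. Those of the helicase genes Mcm6 and Mcm7, chosen after their values were seen, show several words in a single promoter. Lig1, Uhrf1 and Mcm7 also have other listed promoters, which are not shown and held no E2F word. Each printed promoter runs 5′ to 3′ on the gene's own strand, with the E2F words in capitals. The word lay 30 bases after the start of Lig1 (chr7:13278576-13278875, + strand), measured at its centre. In Uhrf1 it lay upstream of the start (chr17:56304063-56304362, + strand). Mcm6 (chr1:128359656-128359955, − strand) held 3 matches, a pair of which overlap, and Mcm7 (chr5:138171834-138172133, − strand) held 2.
Lig1: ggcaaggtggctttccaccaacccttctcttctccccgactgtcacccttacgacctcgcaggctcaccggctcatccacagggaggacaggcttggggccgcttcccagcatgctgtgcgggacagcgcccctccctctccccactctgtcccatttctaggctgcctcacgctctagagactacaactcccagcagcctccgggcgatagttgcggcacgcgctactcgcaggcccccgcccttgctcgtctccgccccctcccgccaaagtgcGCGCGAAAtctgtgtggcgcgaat
Uhrf1: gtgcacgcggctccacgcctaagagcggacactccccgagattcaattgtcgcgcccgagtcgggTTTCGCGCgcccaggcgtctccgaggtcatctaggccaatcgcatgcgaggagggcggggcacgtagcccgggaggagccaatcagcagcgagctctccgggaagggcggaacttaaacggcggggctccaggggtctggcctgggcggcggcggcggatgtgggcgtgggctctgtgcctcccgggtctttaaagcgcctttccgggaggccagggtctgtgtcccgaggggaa
Mcm6: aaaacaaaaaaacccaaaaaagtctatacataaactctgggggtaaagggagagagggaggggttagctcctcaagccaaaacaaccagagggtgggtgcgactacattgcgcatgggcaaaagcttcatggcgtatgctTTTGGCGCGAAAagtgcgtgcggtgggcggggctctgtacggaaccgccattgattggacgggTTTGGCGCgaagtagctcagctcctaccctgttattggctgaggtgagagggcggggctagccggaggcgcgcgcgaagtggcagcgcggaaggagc
Mcm7: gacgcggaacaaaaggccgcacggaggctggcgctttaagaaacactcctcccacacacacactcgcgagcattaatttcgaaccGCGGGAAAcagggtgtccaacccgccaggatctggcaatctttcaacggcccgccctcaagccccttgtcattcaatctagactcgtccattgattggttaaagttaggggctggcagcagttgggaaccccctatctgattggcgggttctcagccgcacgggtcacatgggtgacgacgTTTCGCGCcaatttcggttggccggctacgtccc

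Genes with and without an E2F word co-varied with the set to a like degree. Each gene's mean Spearman correlation with the other members across cells, described further below, had a median of 0.34 over 12 genes with a match (0.25 to 0.40) and 0.35 over 18 genes whose promoters held none (0.21 to 0.44). Rrm2, Rrm1, Tk1, Tyms, Pcna and Mcm10, which varied most closely with the set beside Lig1 and Uhrf1, had promoters without a match to these 4 words.

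The chips held 40 to 75 cells and 35734620 to 61415823 gene reads, with 267852 to 1854600 reads per cell. Detection was set at 5 or more reads after each cell was thinned to 200000 gene reads, which equals 25 CPM (reads scaled to a library of 1000000). Of the markers of the sort and tissue, Ptprc (CD45) was found in 81.7% of the TN and 88.2% of the Ly6D+ cells, Ly6d in 14.6% and 94.7%, and Flt3 in 58.2% and 84.9%. Of 13 listed T and NK genes, Cd3e and Ncr1 were detected in 0 cells, and a cell held 0.704 of the 13 on average in TN and 0.928 in Ly6D+. Of 6 stromal and endothelial genes, 4 were detected in 0 cells, Col1a1 among them, and the averages were 0.415 and 0.413. The part of such genes in the results was not tested. Reads of the 42 genes made up 0.869% to 1.15% of the gene reads of a chip.

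Members ranged widely in how many cells held them. Mcm6 was detected in 78.4% of cells (mean of the 6 chips), Uhrf1, which guides maintenance methylation of newly copied DNA, in 77.8%, Mcm4 in 77.8% and Mcm3 in 76.1%, while the helicase subunits Mcm5 and Mcm2 were detected in 63.7% and 54.6%. At the other end, the S-phase cyclin gene Ccne1 was detected in 8.83%, the GINS subunit Gins3 in 12.4%, the transcription factor E2f1 in 12.8% and the uracil glycosylase Ung in 14.5%. Read per length of the gene, the highest levels were those of Mcm3 at 268 CPM per kb (217 to 359 over chips), the sliding clamp Pcna at 265 (221 to 338) and Mcm7 at 239 (193.2 to 323). The clamp loader subunit Rfc2 (216), Mcm4 (215) and Mcm6 (215) followed, and these ranges overlap each other. Mcm2 to Mcm7 proteins form a ring with 1 copy of each, but these values are RNA reads over the deposited gene length, and protein was not measured. Mcm5 stood at 137.2 CPM per kb (111.2 to 164.3) and Mcm2 at 79.1 (64.6 to 95.4). The highest Mcm2 chip lay below the lowest chip of each of the 5 others. The lowest levels per length were those of E2f1 at 9.46 and Ccne1 at 11.2 CPM per kb.

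None of the 6 helicase subunits was called between TN and Ly6D+. Values below are CPM of chip sums on TMM-scaled library sizes, and in a chip sum fewer expressing cells and less RNA per cell cannot be told apart. Mcm2 stood at 322, 309.7 and 218 CPM on the TN chips and 229, 256 and 266 on the Ly6D+ chips. Mcm3 was at 868, 667 and 634 CPM on the TN chips and 1036, 809 and 625 on the Ly6D+ chips, and Mcm4 at 811, 774 and 798 against 849, 659 and 729. For all 3 genes the chips of the populations overlapped. Mcm5 was at 504, 380.4 and 524 CPM on the TN chips against 435, 562 and 410.4 on the Ly6D+ chips. Mcm6 was at 851, 594 and 465 against 544, 680.4 and 599 CPM. Mcm7 was at 774, 587 and 552 against 566, 499.8 and 463 CPM. Here too every gene's chips overlapped between the populations. The log2 fold changes (Ly6D+ over TN) of the 6 subunits ran from −0.32 ± 0.20 (SE) for Mcm7 to 0.19 ± 0.23 for Mcm3. For Mcm6, whose fold change was −0.07 ± 0.24, the share of cells with detection was 71.7% ± 3.7 in TN and 85.04% ± 7.29 in Ly6D+ (SD over 3 chips), a difference that was not tested.

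No member passed the test between the populations. The quasi-likelihood test of edgeR, run on sums over chips, called 0 of 42 members at an adjusted p under 0.05, against 0.203% of the 11797 genes tested (24 genes). An unadjusted p under 0.05 was reached by 4 members, Tk1, Rrm2, Cdc6 and Pole, all lower in Ly6D+, which is 4 of 42 beside 8.38% of all genes. DESeq2 and limma-trend on chip means also called 0 members, and 396 and 348 genes in all. The fold changes leaned to lower values in Ly6D+, with 30 negative and 12 positive and a median log2 fold change of −0.16, against 0.01 for all genes tested. They ran from −0.99 for Tk1 to 0.53 for Pola2, a subunit of the polymerase alpha and primase complex. The lean was not particular to the set. Of the 30 G2/M genes 23 were negative and 7 positive, with a median of −0.25 and 0 called. Chips did not overlap between the populations for 10 members, beside 15.4% of all tested genes. Of these, Rrm2, Tk1, Gins1, Cdc6, Cdc45, Pole, Slbp, Dut and Chaf1a were lower and Uhrf1 was higher in Ly6D+.

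**Figure D1:**
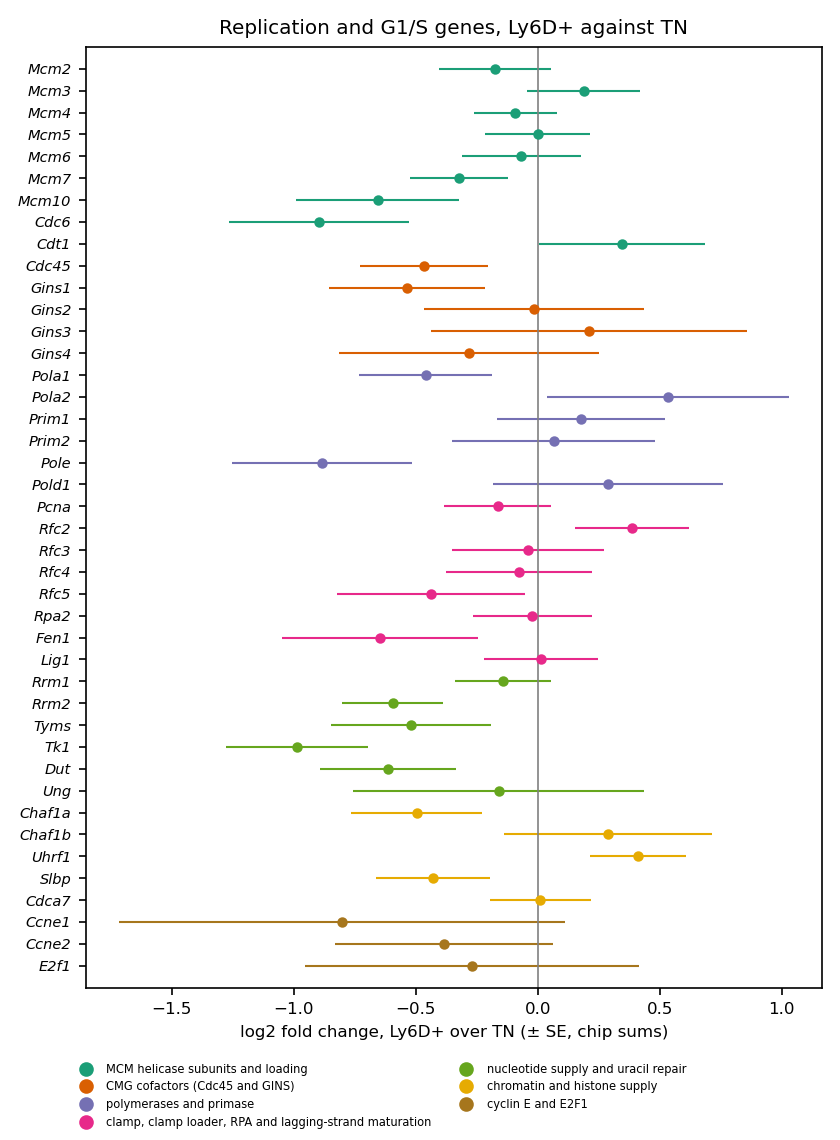
Log2 fold change of each of the 42 genes, Ly6D+ over TN, from chip sums (points, edgeR; bars are ± 1 SE; 3 chips per population; colours mark roles). The 6 genes of nucleotide supply and uracil repair all lie below 0, and Tk1 is the lowest point at −0.99; no gene passed the test.

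Nucleotide supply had the lowest median of the 7 roles. All 6 genes of nucleotide supply and uracil repair had negative fold changes, with a median of −0.56, and their summed CPM was 1803, 1487 and 1877 on the TN chips and 1248, 1408 and 1207 on the Ly6D+ chips. Tk1, the thymidine kinase of S-phase cells, was at 191.5, 140.8 and 217 CPM on the TN chips and 88.8, 113.4 and 74.9 on the Ly6D+ chips. Every Ly6D+ chip lay below every TN chip (log2 fold change −0.99 ± 0.29, SE, edgeR adjusted p = 0.327). The share of cells with Tk1 was 50.6% ± 7.6 in TN and 37.2% ± 2.6 in Ly6D+ (SD over 3 chips). Rrm2, the S-phase subunit of ribonucleotide reductase, was at 489, 452 and 553 CPM against 389, 326 and 274. Its groups did not overlap either (log2 fold change −0.59 ± 0.21, edgeR adjusted p = 0.435). Dut, which removes dUTP, was at 157.7, 165.7 and 129.8 CPM against 105.98, 76.4 and 113.7, again without overlap (−0.61 ± 0.28, edgeR adjusted p = 0.615). The large reductase subunit Rrm1 overlapped between groups, with a log2 fold change of −0.14 ± 0.20. Tyms, thymidylate synthase, overlapped as well (−0.52 ± 0.33), and its reads are uncertain because a pseudogene copy, Tyms-ps, held 8412 reads beside 51167 for Tyms.

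Among loading and replisome genes, the lowest fold changes were those of Cdc6, Pole and Mcm10. Cdc6, the loader of the helicase ring, was at 149.7, 143.7 and 217 CPM on the TN chips and 113.8, 51.7 and 108.8 on the Ly6D+ chips. The groups did not overlap (log2 fold change −0.90 ± 0.37, SE, edgeR adjusted p = 0.551). Pole, the catalytic subunit of polymerase epsilon, was at 221, 119.95 and 120.1 against 55.999, 96.1 and 97.4 CPM, also without overlap (−0.88 ± 0.37, edgeR adjusted p = 0.569). Mcm10, which helps to activate the loaded helicase, was at 102.5, 147.9 and 117.9 against 105.9, 67.4 and 60.4 CPM. Its Ly6D+ chip 4 lay inside the TN range (−0.66 ± 0.33, edgeR adjusted p = 0.678). Fen1, the flap nuclease of Okazaki fragments, was at 289, 215 and 270.2 CPM against 234, 186.5 and 73.4. Its groups overlapped through chip 4, and the lowest value was that of chip 6 (−0.65 ± 0.40, edgeR adjusted p = 0.730). The clamp Pcna was at 353, 278 and 426 against 294, 329.8 and 319.6 CPM (−0.16 ± 0.22), with all Ly6D+ chips inside the TN range.

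The polymerase and primase group had 4 positive fold changes of 6, with a median log2 fold change of 0.12, and the clamp, clamp loader, RPA and lagging-strand group had 2 positive of 8, with a median of −0.06. Chromatin and histone genes had 3 positive of 5. In that group Uhrf1 was at 453, 498 and 524 CPM on the TN chips and 595, 798 and 569 on the Ly6D+ chips. Every Ly6D+ chip lay above every TN chip, but it was not called (log2 fold change 0.41 ± 0.20, SE, edgeR adjusted p = 0.642). Chaf1a, the large subunit of the histone chaperone CAF-1, stood at 129.99 ± 19.15 CPM in TN and 92.2 ± 7.2 in Ly6D+ (SD, n = 3 chips), while the smaller subunit Chaf1b stood at 100.99 ± 42.2 and 123.2 ± 51.4. Cdc45 and the 4 GINS genes, which complete the active helicase, had 1 positive fold change of 5.

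The cyclin E genes and E2f1 were low and had negative fold changes without a call. Ccne1 was at 54.8, 8.36 and 20.4 CPM on the TN chips and 21.8, 4.11 and 22.05 on the Ly6D+ chips. The TN mean rested on chip 1, and without that chip its value of −0.80 ± 0.91 on the log2 scale (SE, edgeR adjusted p = 0.890) became 0.16. Ccne2 was at 87.1, 55.3 and 77.95 CPM against 29.8, 79.1 and 59.9. E2f1 was at 18.9, 24.9 and 32.6 against 8.91, 17.9 and 36.5. In both genes the groups overlapped. Among the other rarely detected members, Gins3 was at 24.6, 38.96 and 26.4 CPM in TN and 12.9, 29.2 and 61.99 in Ly6D+, and Ung at 39.9, 20.8 and 18.6 against 27.3, 16.01 and 27.6. Their groups overlapped too. No gene was called among 48 other DNA replication and S-phase genes (median log2 fold change 0.03, 1 with an unadjusted p under 0.05). None was called among 28 tested cyclins, kinases, E2F and RB factors of G1/S (median −0.07). Of these 28, however, 10 had an unadjusted p under 0.05, 6 higher and 4 lower in Ly6D+, beside 8.38% of all genes.

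The spread between cells was wide in both populations. The number of members detected in a cell ran from 0 to 37 of 42. TN cells held 18.8 ± 1.0 and Ly6D+ cells 18.98 ± 1.55 members (SD over 3 chips). An exact two-sided permutation test gave p = 0.9, where 0.1 is the smallest that 3 chips against 3 allow. By chip the means were 19.9, 18.2 and 18.2 in TN and 20, 17.2 and 19.7 in Ly6D+. Within TN the quartiles over cells were 9 and 28, with a median of 21, and within Ly6D+ they were 11 and 27, with a median of 19. Of all cells, 74 held 7 members or fewer and 99 held 28 or more. The share of cells with at least 21 of 42 members was 51.5% ± 3.9 in TN and 47.6% ± 8.0 in Ly6D+ (SD over 3 chips, exact permutation test p = 0.6). This cut marks a range and not a cell type, and 59 cells lay between 19 and 23. In all, 8 such values per cell were compared between the populations, and after Benjamini-Hochberg adjustment their p ran from 0.8 to 0.9.

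**Figure D2:**
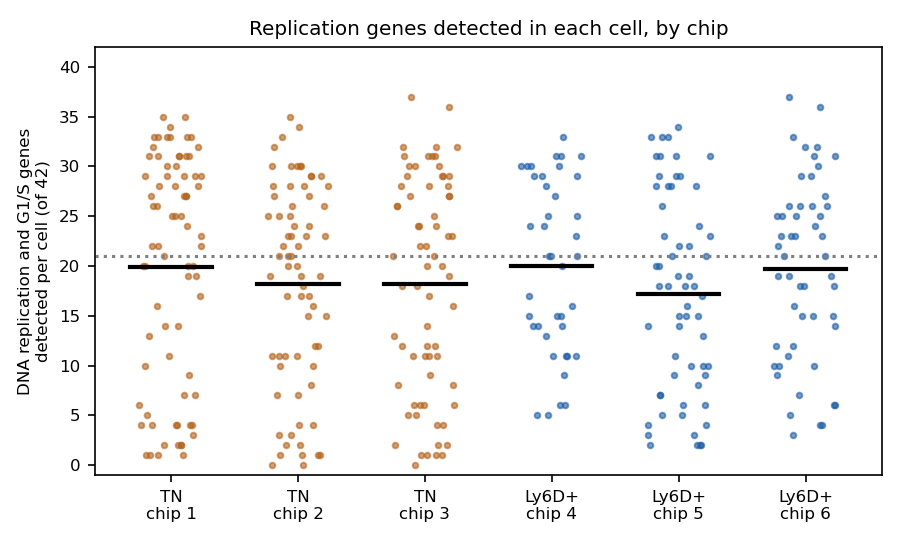
Number of the 42 replication and G1/S genes detected in each cell (points; 5 or more reads after thinning to 200000), by chip, with the chip mean as a bar and a dotted line at 21. Cells spread from 0 to 37 on the plot while the 6 chip means lie between 17.2 and 20.

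The number of detected members moved with the number of genes detected in the cell. Cells with 21 or more members held 2995 detected genes on average and the other cells 2174, at the same thinned depth. The Spearman correlation of the 2 numbers was 0.80, 0.83 and 0.78 on the TN chips and 0.69, 0.79 and 0.50 on the Ly6D+ chips, over 40 to 75 cells that share their chip. Part of this comes from the members being among the genes counted. With reads per cell before thinning the correlation ran from −0.14 to 0.35. What part of the spread in members follows from RNA content or capture was not tested, and values per 1000 detected genes are given beside the comparisons below.

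Members varied together across the cells of a chip. For the 37 members detected in 20% or more of cells, the mean Spearman correlation over 666 pairs was 0.39, 0.34 and 0.38 on the TN chips and 0.27, 0.34 and 0.26 on the Ly6D+ chips. Pairs among all 4603 genes detected that often averaged 0.02 to 0.09 on the same chips, and pairs among 21 G2/M genes 0.44 to 0.54. The correlation was positive in 95.2% to 100% of member pairs on each chip. These are descriptions over cells that share a library batch and differ in the number of genes detected.

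The tightest pairs were nucleotide synthesis genes. Rrm2 and Tk1 had a mean correlation of 0.66 over the 6 chips (0.56 to 0.75), Rrm2 and Tyms 0.64 (0.53 to 0.74), Rrm1 and Tk1 0.60 (0.50 to 0.73) and Rrm1 and Rrm2 0.60 (0.50 to 0.70). Rrm2 had the highest mean correlation with the rest of the set, at 0.44, followed by Rrm1 at 0.40, the DNA ligase Lig1 at 0.40 and Tk1 at 0.40. The weakest was Pola2 at 0.21, then the licensing factor Cdt1 at 0.25 and Chaf1a at 0.25. The 6 helicase subunits lay between 0.32 (Mcm2) and 0.37 (Mcm7), and the best partner of Mcm4 was Mcm6, at 0.47. The best partner of Mcm6 was Cdca7, a chromatin protein gene, at 0.48. On chip 6 the mean correlation of Mcm6 with the set was 0.07, against 0.26 to 0.43 on the other chips.

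**Figure D3:**
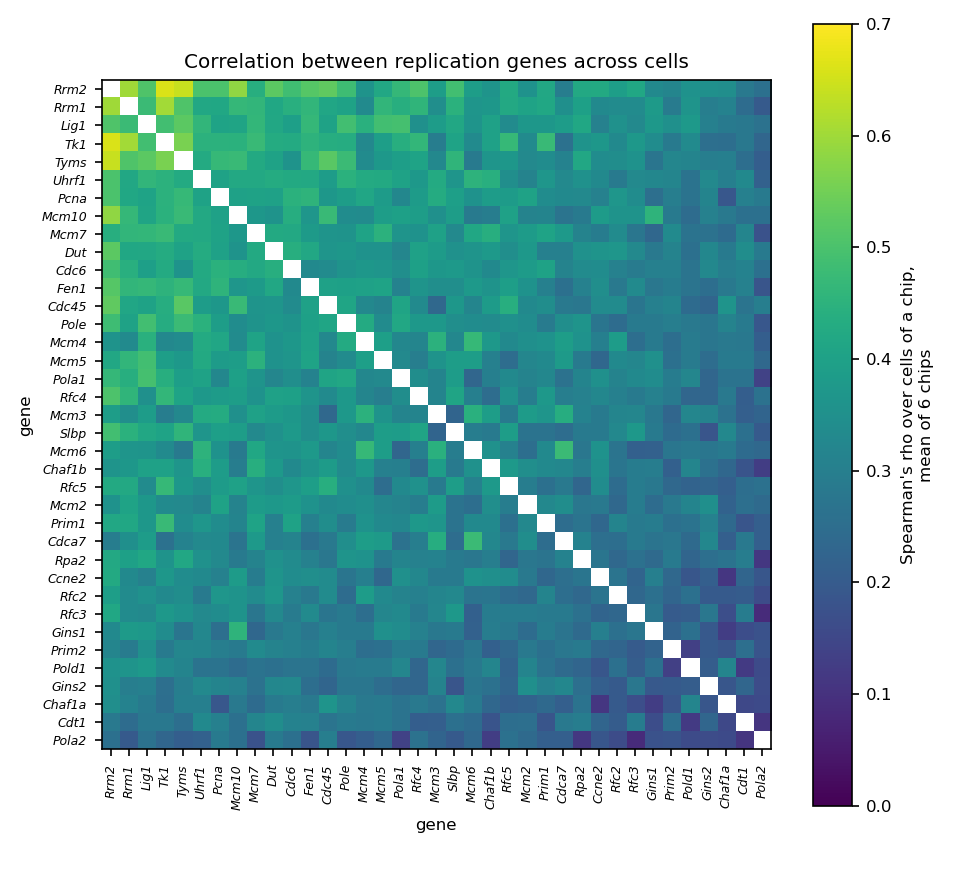
Mean over 6 chips of the Spearman correlation across cells for each pair of the 37 members detected in 20% or more of cells (colour scale from 0 to 0.7), ordered by the mean with the other members. The bright corner holds Rrm2, Rrm1, Tk1 and Tyms, with 0.66 for Rrm2 and Tk1, and the dark edge holds Pola2 with a mean of 0.21.

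Members that tracked G2/M genes were mostly not the helicase subunits. Mean correlations with the 21 G2/M genes were 0.43 for Rrm2, 0.38 for Rrm1, 0.36 for Tk1 and 0.35 for Tyms, against 0.09 to 0.13 for Mcm2, Mcm3, Mcm4 and Mcm6 and 0.06 for Cdca7. Mcm5 (0.21) and Mcm7 (0.18) lay between. Low values were not particular to helicase subunits, with 0.07 for Pola2, 0.10 for Gins2 and 0.11 for Prim2. Detection was also compared between the 85 cells with 15 or more of 30 G2/M genes detected (8 to 21 per chip) and the 280 other cells. Rrm2 was detected in 88.3% of the first and 41.4% of the second, a difference of 46.8 ± 15.3 percentage points (SD, n = 6 chips). The next largest differences were those of Tyms (37.6 points), Rrm1 (36.6) and Tk1. For Tk1 the shares were 71.9% and 35.4%, a difference of 36.5 ± 6.7. Mcm6 was detected in 89.2% and 74.99%, a difference of 14.3 ± 10.7, and Mcm3 in 87.5% and 72.5%, a difference of 14.9 ± 11.9. The difference was larger for the helicase subunit Mcm5, at 26.2 ± 13.6, with 83.7% and 57.5%. Mcm6 and Mcm3 were common in both kinds of cell, and Rrm2 and Tk1 less common in cells with fewer than 15 G2/M genes. For Cdca7 the shares were 67.5% and 67.7%. Ung alone had a difference below −10 points, with 3.89% against 17.6% (lower in the G2/M-rich cells on 5 of 6 chips). Over the set, 39 of 42 members were detected more often in the G2/M-rich cells on average and 20 on all 6 chips. Those cells held 3089 ± 127.7 detected genes against 2454 ± 212.03, and 7.87 against 7.01 members per 1000 detected genes.

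Many cells with 21 or more members held fewer than 15 of the 30 G2/M genes. The mean over all cells was 8.63 G2/M genes, so a cell under 15 can still lie above the mean. Of the cells with 21 or more members, 63 (34.8%) also held 15 or more G2/M genes. Of the cells with fewer members, 22 (12%) did. Cells with 21 or more members but under 15 G2/M genes were also counted. Their share was 33.7% ± 5.4 in TN and 31.3% ± 9.8 in Ly6D+ (SD, n = 3 chips, exact permutation p = 0.9). The number of G2/M genes per cell was 9.28 ± 0.84 in TN and 7.77 ± 0.23 in Ly6D+ (exact permutation p = 0.1), with every TN chip above every Ly6D+ chip.

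**Figure D4:**
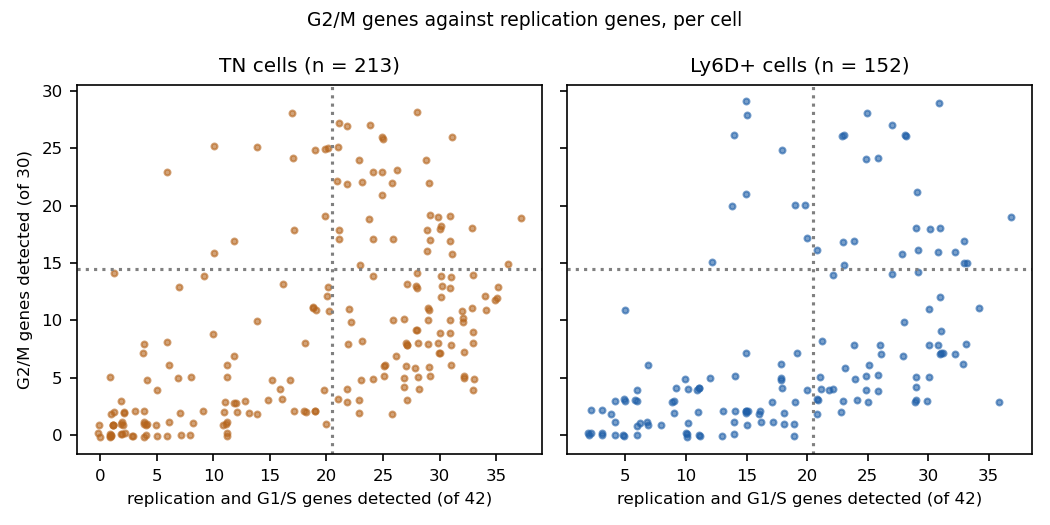
G2/M genes detected (of 30) against replication and G1/S genes detected (of 42) in each TN cell (left) and Ly6D+ cell (right), with small random offsets and dotted lines at 21 and 15. In both panels cells with few members sit mostly near the bottom left, and cells with 21 or more members spread upward, with 34.8% of these at 15 or more G2/M genes.

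Outside the set, the gene that followed the number of detected members most closely was Pclaf, which encodes a PCNA-binding protein, with a mean correlation of 0.72 over the 6 chips (0.58 to 0.81). The mean over 4564 genes detected in 20% or more of cells was 0.18. Next came Gm20756 (0.68), the geminin gene Gmnn (0.66), which encodes the inhibitor of Cdt1, the tubulin regulator Stmn1 (0.66), Tyms-ps (0.65), Dtl (0.64), which marks Cdt1 for degradation at PCNA, and the topoisomerase gene Top2a (0.62). Clspn (0.62), Tuba1b (0.61), Smc2 (0.61) and Kntc1 (0.59) were also among the 12 highest. Of these, Gmnn and Clspn were on the list of other replication genes and Top2a was on the G2/M list. Counts of Tyms-ps followed those of Tyms with a Spearman correlation of 0.97 over all cells, and those of Gm20756 followed Pclaf with 0.94, and reads of each pair may be split between copies. After the number of detected genes was held constant, the partial correlation was 0.56 for Pclaf and 0.49 for Gmnn, against a median of 0.00 over all these genes, and 8 of the 12 remained among the 12 highest.

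The 6 lowest genes were Rps27rt (−0.39) and Rps27 (−0.38), near-identical copies of a ribosomal protein gene whose counts correlated at 0.99, the antiproliferative gene Btg1 (−0.37), the interferon-induced gene Samd9l (−0.32), the nuclear RNA Malat1 (−0.31) and B2m (−0.31), the light chain of MHC class I. Btg1 was negative on all 6 chips, from −0.64 to −0.19, and its partial correlation averaged −0.14, with 0.10 on chip 1. Only 1 of these 6 genes remained among the 6 lowest by partial correlation.

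In TN cells, replication genes were fewer in cells with MHC class II transcript. TN cells with H2-Aa, an MHC class II chain gene of antigen-presenting cells, held 13.3, 9.90 and 8.93 members on chips 1, 2 and 3, and the other TN cells 22.2, 21.8 and 20.8. The difference was −10.9 ± 1.7 members (SD, n = 3 chips), in the same direction on 3 of 3 chips. An exact sign-flip test over 3 chips cannot go below p = 0.25, so no p is given for the class differences in members per cell. H2-Aa-detected cells (55 of 213) also held fewer detected genes, 2027 against 2696, and per 1000 of them 5.26 against 8.01 members. By gene, 41 of 42 log2 fold changes were negative, with a median of −0.95 against −0.52 for all genes. The 30 G2/M genes had a median of −0.50, with 22 negative, and 6.11 against 10.4 of them were detected per cell. EdgeR with chip as a term called 0 members (0.0344% of all genes, 4 of 11644), and 7 (16.7%) had an unadjusted p under 0.05 beside 5.11% of all genes. DESeq2 called 2 of 42 members, Prim1 and Chaf1b, as lower, beside 755 of 11644 genes in all. The 3 members with the smallest p were Rrm1, Prim1 and Mcm7. Rrm1 was at 323, 145.4 and 329.8 CPM in H2-Aa-detected cells and 799.7, 719.8 and 758 in the others, without overlap (log2 fold change −1.60 ± 0.33, SE, edgeR adjusted p = 0.582). Prim1, the catalytic primase subunit, was at 21.998, 42.1 and 10.9 against 162.5, 159.5 and 205.5 CPM (−3.01 ± 0.78). Mcm7 was at 549, 388 and 185.6 against 818, 626 and 608 CPM (−0.99 ± 0.33). In each of the 3 genes the H2-Aa-detected class was lower on every chip.

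TN cells with granule protein transcript held more replication genes. Cells with Mpo or Prtn3, which encode myeloperoxidase and proteinase 3 of granule-forming myeloid precursors, held 25.2, 22.8 and 21.4 members on chips 1, 2 and 3, against 14.6, 14.6 and 14.5 in the other TN cells. The difference was 8.55 ± 1.87 members (SD, n = 3 chips), positive on 3 of 3 chips. They also held more detected genes, 2858 against 2199, and 8.09 against 6.64 members per 1000 of them. With the number of detected genes held constant, the correlation of Mpo level with the number of members was −0.25, −0.12 and −0.06 on these chips. For Prtn3 it was 0.12, −0.09 and 0.03, so in this form neither level went with more members on every chip. Without holding that number constant, the correlations were positive on every chip, with 0.23, 0.33 and 0.20 for Mpo and 0.30, 0.31 and 0.47 for Prtn3. Of the 42 log2 fold changes 33 were positive, with a median of 0.36 against 0.05 for all genes. G2/M genes had a median of 0.44, with 27 of 30 positive, and 11.9 against 6.78 of them were detected per cell. EdgeR called 0 members (0.00849% of all genes, 1 of 11776), and 7 (16.7%) had an unadjusted p under 0.05 beside 6.58% of all genes. DESeq2 called 2 of 42 members, Rrm1 and Chaf1a, as higher, beside 611 of 11776 genes in all. Rrm1 was at 929.6, 824 and 941 CPM in Mpo- or Prtn3-detected cells and 491, 399 and 366 in the others (1.11 ± 0.18, SE, edgeR adjusted p = 0.391). Chaf1a was at 205.3, 185.1 and 218 against 72.4, 39.7 and 29.4 CPM (2.20 ± 0.43), and Mcm7 at 991, 839 and 614 against 555, 367 and 465 (0.81 ± 0.21). In all 3 genes the detected class was higher on every chip, and the other TN cells of this contrast include the H2-Aa-detected cells.

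Irf8, a transcription factor of dendritic and monocytic lineages, went with more replication genes in both populations. Irf8-detected TN cells held 23.7, 19.9 and 18.9 members and the other TN cells 9.50, 12.6 and 9.60, a difference of 10.3 ± 3.6 (SD, n = 3 chips). In Ly6D+ the values were 21.8, 19.2 and 21.3 against 16.7, 12.4 and 16.3, a difference of 5.595 ± 1.039. The difference was positive on all 6 chips, and every TN chip showed a larger one than every Ly6D+ chip (exact two-sided permutation p = 0.1, the smallest possible). By level of Irf8 the order of the means was the other way, but the chips overlapped. The correlation of its CPM with the number of members averaged 0.16 over the TN chips and 0.36 over the Ly6D+ chips. With the number of detected genes held constant, that order was not kept. The values were then 0.34, 0.11 and 0.23 in TN and 0.23, 0.06 and 0.27 in Ly6D+. Few TN cells lacked Irf8, with 20, 16 and 5 on chips 1, 2 and 3, and the TN difference ran from 8.31 to 11.8 when each chip was left out in turn. Members per 1000 detected genes were 7.91 against 5.03 in TN and 7.37 against 6.31 in Ly6D+. In TN, edgeR called 0 members (0.0% of all genes, 0 of 11668), 8 had an unadjusted p under 0.05 beside 4.99% of all genes, and DESeq2 called Rrm2, Ccne1, Chaf1a and Chaf1b as higher. The median log2 fold change was 1.45, against 0.87 for all genes and 2.15 for the G2/M genes, of which 10.4 against 4.59 were detected per TN cell. All 14 tested myeloid genes were higher in Irf8-detected TN cells (median 7.58), and 7 of 10 tested dendritic and MHC class II genes were lower. This contrast is therefore not independent of that for Mpo or Prtn3. Rrm2 was at 614, 493 and 552 CPM in Irf8-detected TN cells and 35.6, 232 and 34.1 in the others (3.14 ± 0.78, SE, edgeR adjusted p = 0.790), higher on every chip. Chaf1a was at 172.6, 128.8 and 141.6 against 23.8, 14.6 and 3.79 CPM. Ccne1 was at 70.04, 10.3 and 20.4 against 0.066, 0 and 0.345 CPM, so that its level in the other cells rests on next to no reads.

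In Ly6D+, edgeR called 0 members between Irf8-detected and other cells (0.00879% of all genes, 1 of 11376), 1 had an unadjusted p under 0.05 beside 4.05% of all genes, and DESeq2 called 0. G2/M genes had a median log2 fold change of 0.35, and 8.51 against 6.12 were detected per cell. All 15 B-lineage genes, Ebf1 among them, were lower in Irf8-detected Ly6D+ cells (median −1.86). This contrast and the Ebf1 contrast below are therefore not independent. The member with the smallest p was Lig1, at 258, 247 and 216 CPM in detected and 112.9, 118.9 and 84.9 in the other cells (1.20 ± 0.40, SE, edgeR adjusted p = 0.998). The next were Mcm5 (0.74 ± 0.33) and the polymerase delta gene Pold1 (1.43 ± 0.68). The interaction of Irf8 class and population called 0 members (0.0% of all genes), and 4 had an unadjusted p under 0.05 beside 3.82% of all genes, all with a smaller difference in Ly6D+. Rrm2 had the smallest p of these: its CPM in Ly6D+ was 380.2, 318 and 244 in Irf8-detected and 358, 314 and 302 in other cells, so the classes overlapped there (interaction −3.19 ± 0.85, SE, edgeR adjusted p = 1.0). Ccne1 and Mcm6 followed, and Mcm6 had an interaction of −1.25 ± 0.44.

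B-lineage transcript went with fewer replication genes on 2 of 3 Ly6D+ chips. Cells with Ebf1, a transcription factor of B-lineage commitment, held 16.2, 17.5 and 16.1 members on chips 4, 5 and 6, and the other Ly6D+ cells 23.1, 17.1 and 22.9. The difference was −4.41 ± 4.18 members (SD, n = 3 chips), with chip 5 at 0.42. Members per 1000 detected genes were 6.47 against 7.51. EdgeR called 0 members (0.00877% of all genes, 1 of 11402), 2 had an unadjusted p under 0.05 beside 4.39% of all genes, and DESeq2 called 0. Of the fold changes 33 of 42 were negative, with a median log2 fold change of −0.42 against −0.11 for all genes. The smallest p belonged to Mcm2, at 159.7, 152 and 138.6 CPM in Ebf1-detected cells and 271, 308 and 364.6 in the others (−1.06 ± 0.31, SE, edgeR adjusted p = 1.0), lower on all 3 chips. The clamp loader genes Rfc4 (−1.02 ± 0.40) and Rfc5 (−1.72 ± 0.75) were next. G2/M genes also were fewer in Ebf1-detected cells, 5.46 against 9.56 per cell.

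Dntt and Kit, genes of lymphoid and of multipotent progenitors, went with smaller differences. Dntt encodes the terminal transferase of antigen receptor joints, and Dntt-detected TN cells held 21.7, 22.1 and 18.4 members against 19.2, 16.1 and 18.2, a difference of 2.92 ± 2.93 (SD, n = 3 chips). Per 1000 detected genes the values were 7.52, 7.91 and 7.36 against 7.70, 6.82 and 7.49, so the direction turned on chips 1 and 3. G2/M genes per cell were 9.11 against 9.35. EdgeR called 0 members there (0.0% of all genes, 0 of 11734), 4 had an unadjusted p under 0.05 beside 7.31% of all genes, and DESeq2 called Prim2 as higher. Prim2, the large primase subunit, was at 225, 171.04 and 501 CPM in Dntt-detected and 64.8, 73.8 and 168.3 in other TN cells (1.53 ± 0.29, SE, edgeR adjusted p = 0.387), higher on every chip. Mcm4 (0.59 ± 0.18) and Pold1 (−1.60 ± 0.57) had the next smallest p, in opposite directions.

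Kit encodes the receptor for stem cell factor. Kit-detected cells held 19.3, 17.8 and 19.1 members against 20.4, 18.5 and 17.98 in TN, a difference of −0.23 ± 1.15 (SD, n = 3 chips). In Ly6D+ they held 20.1, 15.6 and 18.4 against 19.97, 17.6 and 20.2, a difference of −1.22 ± 1.20, and both differences were about the size of their SD or smaller. Members per 1000 detected genes were 7.38 against 7.51 in TN and 6.88 against 7.11 in Ly6D+. G2/M genes were fewer in Kit-detected cells of both, 7.87 against 10.1 in TN and 6.08 against 8.20 in Ly6D+. EdgeR called 0 members in TN (0.00852% of all genes, 1 of 11737, with 3 members at an unadjusted p under 0.05 beside 3.43% of all genes) and 0 in Ly6D+ (0.0%, 0 of 11333, with 1 such member beside 3.77%). DESeq2 called 0 in both. In TN the smallest p belonged to Ccne2, at 50.3, 20.7 and 18.3 CPM in Kit-detected and 116.5, 81.5 and 94.4 in other cells (−1.85 ± 0.60, SE, edgeR adjusted p = 1.0), followed by Rfc4 (−0.91 ± 0.32) and Rpa2 (−1.07 ± 0.39). In Ly6D+ it belonged to Uhrf1, at 905.6, 932 and 747 against 491, 739.8 and 472 CPM (0.63 ± 0.23, edgeR adjusted p = 0.971), followed by Fen1 (0.95 ± 0.41) and Chaf1b (1.19 ± 0.54). The interaction of Kit class and population called 0 members (0.0% of all genes, 0 of 12515), with Uhrf1 and Fen1 at an unadjusted p under 0.05 beside 3.77% of all genes.

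**Figure D5:**
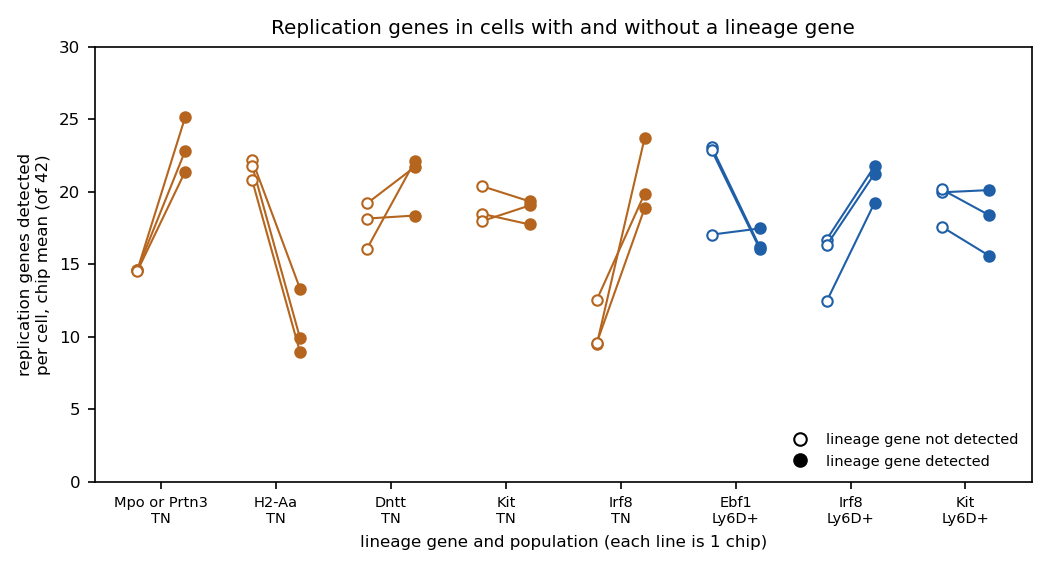
Mean number of replication and G1/S genes detected per cell (of 42) in cells without (open points) and with (filled points) each lineage gene, with a line for each of the 3 chips of a population. The lines fall on all chips for H2-Aa in TN and climb on all chips for Mpo or Prtn3 in TN and for Irf8 in both populations, while those for Kit are nearly flat.

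In TN, Id2 and the MHC class II genes ran against the set, while Csf1r, Prtn3 and plasmacytoid dendritic genes ran with it. Correlations given here are between the number of members detected and a lineage gene's CPM, over 40 to 75 cells of a chip. For Id2, a factor of dendritic and innate lymphoid cells, they were −0.48, −0.58 and −0.47 in TN and 0.18, 0.03 and −0.08 in Ly6D+. For Cd74, the MHC class II invariant chain, they were −0.47, −0.53 and −0.30 in TN and −0.00, 0.05 and 0.09 in Ly6D+. The growth factor receptor Csf1r of macrophage precursors had 0.46, 0.25 and 0.43 in TN, where 30.03% of cells had it, and Prtn3 had 0.30, 0.31 and 0.47. In Ly6D+, Dntt had −0.31, −0.19 and −0.26, Ebf1 −0.41, −0.05 and −0.36 and Cd79a, a B cell receptor chain, −0.43, −0.35 and −0.35. Irf8 had 0.31, 0.08 and 0.10 in TN and 0.40, 0.26 and 0.43 in Ly6D+. The plasmacytoid dendritic gene Siglech (0.08 to 0.34) and Ly6d (0.10 to 0.43) were also positive on all 6 chips. The number of plasmacytoid dendritic genes detected, of 11 listed, had 0.59, 0.34 and 0.44 in TN and 0.24, 0.42 and 0.33 in Ly6D+. The other named genes had mean values over the 6 chips of −0.18 for Il7r, 0.15 for Flt3, 0.10 for Mpo, −0.04 for Kit, 0.25 for Cd34 and 0.11 for Notch1.

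With the number of detected genes held constant, some of these values moved toward 0 and others changed sign. The TN values of Id2 became 0.01, −0.18 and −0.10, and those of Csf1r 0.25, 0.05 and 0.22. Those of Prtn3 became 0.12, −0.09 and 0.03, which no longer share a sign. The Ly6D+ values of Ebf1 became −0.04, 0.00 and −0.20. Mpo changed sign in TN, from 0.23, 0.33 and 0.20 to −0.25, −0.12 and −0.06, and was negative on all 6 chips. The means over 6 chips changed sign for Cd34 (to −0.15), Flt3 (to −0.10) and Notch1 (to −0.12). Irf8 kept positive values on all 6 chips (0.06 to 0.34), and so did Siglech (0.06 to 0.31). The list of plasmacytoid dendritic genes did not, with 0.33, 0.13 and 0.35 in TN and −0.09, 0.12 and 0.18 in Ly6D+. Ly6d ran from −0.03 on chip 5 to 0.44 on chip 6. How far the lineage relations follow from the number of genes captured per cell was not tested beyond these values.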

How the data were processed

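Full-length cDNA of single cells was made on Fluidigm C1 chips with a SMARTer kit and sequenced as Nextera XT libraries, per the labels' protocols. Values are read counts, not normalized, that the authors deposited for each gene in each cell and made on mm9 with R 3.2.0 among the tools, per the submitters' processing notes. For the aligner, the counter and the use of strand: not given in the sources used here. The libraries have no molecular identifiers and the kit does not mark strand, so antisense overlaps cannot be told apart. Symbols came from a RefSeq table of GRCm38.p6 for 23334 of 23427 genes, and promoter sequences from the same assembly. Gene lengths came from the deposited table. A row without a symbol (Entrez 100861531) held 0.802% of reads. All deposited cells were used, 0 value columns were unused, and no doublet caller was run.

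Counts were summed per chip, or per chip and class, and entered edgeR 4.0.16 under R 4.3.3 (TMM, filterByExpr, quasi-likelihood, Benjamini-Hochberg over all genes, 0.05), beside DESeq2 1.42.0 and limma 3.58.1. Class contrasts had chip as a term, and a class was cells with 5 or more thinned reads of the lineage gene. Per-cell values used cells thinned to 200000 reads and exact permutation over 6 chips. Correlations are Spearman's, on log2(CPM + 1). The edgeR and DESeq2 fits of chip sums and an edgeR class fit were run on simulated counts with 200 changed genes. DESeq2 class fits, interaction fits, limma, permutation tests and correlations were not. The chips carry the depths given above, which limit low genes most.

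The members, the lists of other genes, the lineage genes and the tests were chosen with earlier results of these data known, so no pattern here is independent support for them. Members were named where they had the 8 largest absolute fold changes, the 4 highest or 4 lowest detection shares or one of the 3 smallest p in a class contrast, together with Mcm2 to Mcm7, Pcna, Ccne1, Ccne2 and E2f1. Other genes were the 12 highest and 6 lowest in correlation and 18 lineage genes. Of these, 1 gene is not reported here. Further members are named where a role or count is described.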

Additional observations from a re-analysis of the deposited data

Results flagged for a closer look

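Among 18 lineage genes and 13 lists, 4 had correlations with the number of detected replication genes that were of one sign on all 3 TN chips and of the other sign on all 3 Ly6D+ chips. These differences were not tested beyond an exact permutation of the 6 chip values, which gave p = 0.1 for each, the smallest it can give.

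H2-Aa averaged −0.40 over the TN chips (−0.30, −0.54 and −0.35) and 0.18 over the Ly6D+ chips (0.17, 0.17 and 0.20), with detection in 25.8% of TN and 12.4% of Ly6D+ cells. With the number of detected genes held constant its TN values were 0.04, −0.25 and −0.17. The list of 12 dendritic and MHC class II genes, which holds H2-Aa, averaged −0.38 in TN and 0.12 in Ly6D+, with partial values of 0.04, −0.26 and 0.01 in TN.

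Rag1, which encodes a recombinase subunit, averaged 0.046 over the TN chips and −0.43 over the Ly6D+ chips (−0.57, −0.33 and −0.39). Rag1 was detected in 1.41% of TN cells, so its TN values rest on very few cells. With the number of detected genes held constant, its Ly6D+ values were −0.30, 0.06 and −0.28, which no longer share a sign. The list of 15 B-lineage genes averaged 0.19 in TN (0.04, 0.40 and 0.14) and −0.36 in Ly6D+ (−0.54, −0.14 and −0.39). TN cells held 0.949 of these genes on average and Ly6D+ cells 4.54, and partial values in Ly6D+ were −0.15, 0.01 and −0.23.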

How the results depend on the processing

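The count of members called stayed at 0 in 79 of 83 refits of the 11 contrasts, leaving out each chip included (0 to 0 in every contrast), and the 4 others were DESeq2 fits. In the main class and interaction fits edgeR called only 0 to 4 genes of any kind. For Dntt and Irf8 in TN and Kit in Ly6D+ it called 0, so not even the gene that set the class. A stable count of 0 members there cannot show that members did not differ. DESeq2 called 2 members for Mpo or Prtn3 and 2 for H2-Aa, 1 for Dntt and 4 for Irf8, all in TN. It called 611 of 11776, 755 of 11644, 757 of 11734 and 1150 of 11668 genes in all in these contrasts. In none of them was the share of members called above that of all genes. The cause of the gap to edgeR was not tested. No paired analysis was possible because each chip held cells of 1 population, so replicate numbers do not pair TN with Ly6D+ samples. The difference in members per cell (Ly6D+ minus TN, 0.19) had no stable sign: it was −0.49 with a limit of 20 thinned reads, −0.34 without cells under 1500 detected genes, and −0.32 to 1.08 when a chip was left out. The difference in the share of cells with 21 or more members (−3.93 points) was 4.85 with 14 or more members and lay between −6.39 and 0.69 in the fits without 1 chip. The Ccne1 log2 fold change lay between −1.23 (without chip 2) and 0.16 (without chip 1). Alternatives for the lineage classes were chosen after seeing the data. The H2-Aa difference in TN was −9.09 with H2-Aa at 1 thinned read and −8.93 with members at 20 thinned reads, and the Irf8 difference in Ly6D+ was 4.02 with members at 20. The Kit differences were −1.69 in TN and 0.062 in Ly6D+ with Kit at 1 thinned read. The Ebf1 difference lay between −6.82 (without chip 5) and −3.17, and the Dntt difference between 1.36 (without chip 2) and 4.28. The mean member correlation, 0.33, was 0.31 on thinned counts and 0.31 without cells under 1500 detected genes. Low genes such as Ccne1 and E2f1 rest on few reads.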
